A study of Mus musculus with 12 samples.

Results

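Nfat5, Sgk1, Slc38a2, Slc6a6 and Hspa4l are genes that protect cells of the renal medulla from high salt and osmolality. They were taken as all clones on the array whose single annotated gene is one of these 5 symbols. This gave 7 clones of 15600 and 5 genes of 6786: Slc6a6 had 3 clones and each other gene had 1. Each clone was printed as 2 adjacent spots, so 14 spots of 31200 carry the results.

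Medulla RNA came from 3 mice under water restriction and 3 control mice, and was amplified and hybridised in 2 colours so that every restricted mouse met every control mouse. The 9 pairs of mice gave 12 arrays, since 3 pairs were hybridised in both dye orientations. The sources used here do not give strain, genotype, age, sex, the length of water restriction or any pooling of animals. Nothing else distinguishes the groups in the labels, and both groups were handled as whole medulla. A log2 ratio holds no level of its own, so the labelled tissue could not be checked against the level of its markers, and in bulk tissue fewer cells of a type and less RNA per cell cannot be told apart.

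The medulla surrounds its cells with concentrated salt and urea, and cells there balance the outside by accumulating organic osmolytes such as taurine, betaine, myo-inositol, sorbitol and neutral amino acids. Nfat5, also called TonEBP, is the transcription factor that hypertonicity activates, and it binds the tonicity-responsive enhancer, TonE, of genes for osmolyte transport and synthesis and for heat shock proteins. Slc6a6 carries taurine into cells. Slc38a2 is a sodium-coupled carrier of neutral amino acids that both hypertonicity and amino acid shortage induce. Hspa4l, an osmotic stress protein, is a chaperone of the HSP110 family. Sgk1 is a kinase that stimulates sodium transport, and steroids and loss of cell volume induce it.

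All values below are log2 ratios turned to 1 orientation, that with the restricted mouse in Alexa Fluor 546. The sources used here do not settle which dye is the numerator. With Alexa Fluor 546 as the numerator, genes on the positive side were more abundant under water restriction, and with 647 they were less abundant. Genes with opposite signs lay on opposite sides under either reading. The SD over spots was between 0.515 and 0.764 on 11 arrays, and was 1.21 on the array of restricted mouse 2 with control mouse 2. Duplicate spots of all clones differed by a median of 0.31. The number of arrays limits the precision of every value.

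RefSeq promoter windows of 300 bases (250 before to 50 after an annotated start, GRCm38.p6) were found for Nfat5, Sgk1, Slc38a2 and Hspa4l, with 6 windows for Sgk1 and 1 for each other gene. They are shown for Sgk1 because it was the only one of the 5 genes with 1 sign on all arrays, and only for the 2 windows with the 6-base TonE core TGGAAA on either strand. Capitals mark the core, which is read on the reverse strand in the first (chr10:21881934-21882233, plus strand) and on the plus strand in the fifth (chr10:21993640-21993939, plus strand).
Sgk1 window 1: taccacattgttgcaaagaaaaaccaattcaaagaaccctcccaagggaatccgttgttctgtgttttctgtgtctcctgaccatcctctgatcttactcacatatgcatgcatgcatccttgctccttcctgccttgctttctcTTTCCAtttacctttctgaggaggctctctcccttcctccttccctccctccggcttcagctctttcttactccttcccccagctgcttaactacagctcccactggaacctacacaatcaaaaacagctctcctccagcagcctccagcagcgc
Sgk1 window 5: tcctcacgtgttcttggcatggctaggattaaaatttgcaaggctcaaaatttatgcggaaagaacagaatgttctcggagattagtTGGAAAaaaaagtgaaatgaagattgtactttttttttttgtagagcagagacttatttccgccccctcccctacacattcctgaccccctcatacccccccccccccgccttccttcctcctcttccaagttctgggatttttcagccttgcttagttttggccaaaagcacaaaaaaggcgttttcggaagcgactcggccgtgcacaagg

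The core lay from -105 to -100 relative to the start in window 1 and from -163 to -158 in window 5. It was present in 21.4% of all 32851 promoter windows of this length, so a match is common. Window 5 also held the glucocorticoid response pattern ACANNNTGT from -186 to -178 (6.85% of windows) and, overlapping it, the heat shock pattern GAANNTTC from -183 to -176 (7.86% of windows). The glucocorticoid pattern was also in window 2 and the heat shock pattern in window 3. The amino acid response core TGATG was found in the Nfat5 window and in windows 2 and 4 of Sgk1, and in 39.3% of all windows. The Slc38a2 and Hspa4l windows held none of these 4 patterns on either strand. A match is a description of letters and does not mark a binding site.

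Nfat5 lay on the negative side and the other 4 genes on the positive side of the comparison between groups. By limma on the levels of 6 mice, 0 of the 5 genes and 0 of 6786 genes had an adjusted p under 0.05, a background of 0%. At an unadjusted p under 0.05 there were 2 of the 5 genes, Nfat5 and Sgk1, against 337 of 6786 genes or 4.97%. The median of the 5 log2 differences was 0.41, and that of all genes 0.00 (0.0034).

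Nfat5, the transcription factor, was the only one of the 5 genes on the negative side. With restricted mouse 1 its log2 ratios were -1.30 against control mouse 1, 0.02 against control mouse 2, and -1.33 and -1.23 in the 2 orientations against control mouse 3. With restricted mouse 2 they were -0.50 and 0.07 against control mouse 1, -0.48 against control mouse 2 and 0.09 against control mouse 3. With restricted mouse 3 they were -2.49 against control mouse 1, -0.93 and -1.13 against control mouse 2 and -0.91 against control mouse 3. Nfat5 was thus negative on 9 of 12 arrays, with all 4 arrays of restricted mouse 3 at or below -0.91, while those of restricted mouse 2 were near 0 in one orientation and near -0.5 in the other.

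The 3 arrays on which Nfat5 lay just above 0 all carried the restricted mouse in Alexa Fluor 647, and the 6 arrays of the other orientation were all negative, from -1.33 to -0.48. The lowest ratio, -2.49, was also on an array with the restricted mouse in 647. The Nfat5 dye term was -0.07 (SE 0.15, limma adjusted p = 0.819). The difference between groups was -0.91 with the restricted mouse in 546 alone and -0.78 in 647 alone. Fitted levels, which sum to 0 over the 6 mice, were -0.43, 0.22 and -1.05 in restricted mice and 0.91, 0.07 and 0.28 in control mice 1 to 3. The level of restricted mouse 2 lay within the control range, so the groups overlapped. The difference was -0.84 (SE 0.34, 3 mice against 3, adjusted p by limma = 0.936), a size exceeded by 0.973% of all genes, while 3.89% had a smaller p. It was -0.53 without restricted mouse 3, and -0.655 (SE 0.48) without the array of restricted mouse 2 and control mouse 2.

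**Figure D1:**
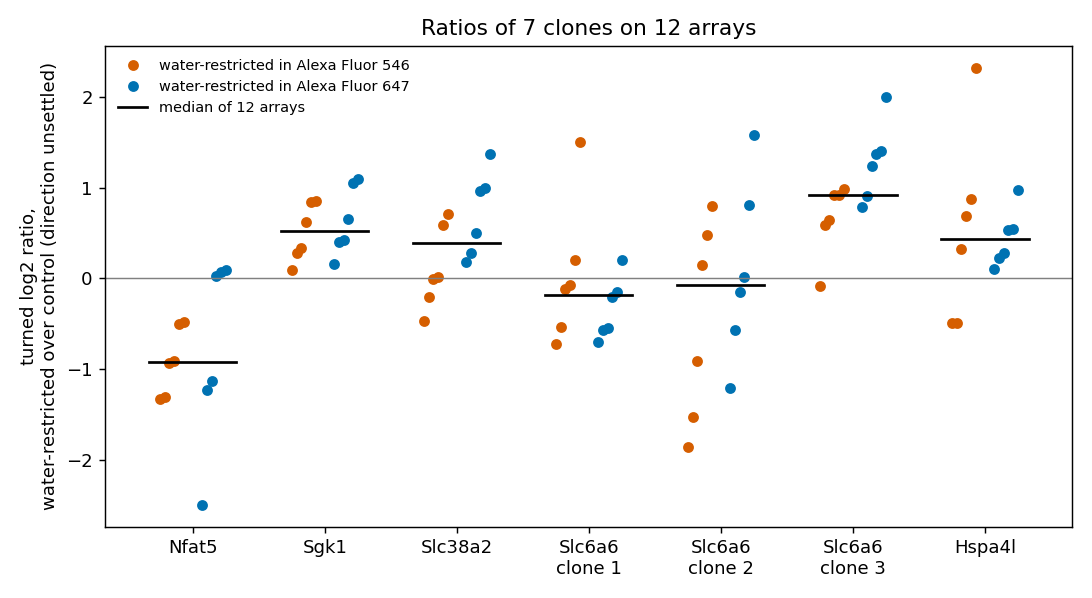
Turned log2 ratio (y axis) of each of the 7 clones (x axis) on 12 arrays, as the mean of 2 spots, with colour for the dye of the restricted mouse and a bar at the median. All 12 Sgk1 points lie above 0, from 0.09 to 1.09, while Nfat5 has 9 points below 0 and Slc6a6 clone 2 has 6 on each side.

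Sgk1, the kinase, was the most uniform of the 5 genes, with a positive ratio on 12 of 12 arrays. One sign on all arrays was seen in 139 of 6786 genes, or 2.05%. Its duplicate spots differed by a median of 0.10 and by at most 0.17. Against control mouse 1 its log2 ratios were 0.27 with restricted mouse 1, 0.09 and 0.40 with restricted mouse 2 and 0.43 with restricted mouse 3. Against control mouse 2 they were 0.65, 0.62, and 0.33 and 0.16. Against control mouse 3 they were 0.84 and 1.05, 1.09, and 0.85. The 4 arrays with control mouse 3 thus all lay above the 8 arrays with the other control mice, whichever restricted mouse was on them.

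As deposited, before any sign was turned, Sgk1 was positive on all 6 arrays of one orientation and negative on all 6 of the other, so its ratio followed the dye of the restricted mouse. Levels were 0.33, 0.35 and 0.21 in restricted mice and -0.02, -0.21 and -0.67 in control mice 1 to 3, and the groups did not overlap. Groups whose mouse levels did not overlap were seen for 2 of the 5 genes, Sgk1 and Slc6a6 (the latter as the mean of its clones), against 9.8% of all genes. The Sgk1 difference was 0.59 (SE 0.19, 3 mice against 3, adjusted p by limma = 0.771), and 0.41 without control mouse 3. In a fit with random mouse effects, Sgk1 was the only one of the 5 genes past the threshold (0.56, SE 0.13, limma adjusted p = 0.0354). There 1.67% of all genes were called. That fit counts arrays rather than mice, and uses 1 ratio of mouse to array variance, 0.12, for all genes. Between mice of a group Sgk1 had F = 3.94 (limma F-test, adjusted p = 0.362), and whether the shared ratio holds for Sgk1 was not tested. Calls from this fit, here and below, are thus no test of 3 mice against 3.

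**Figure D2:**
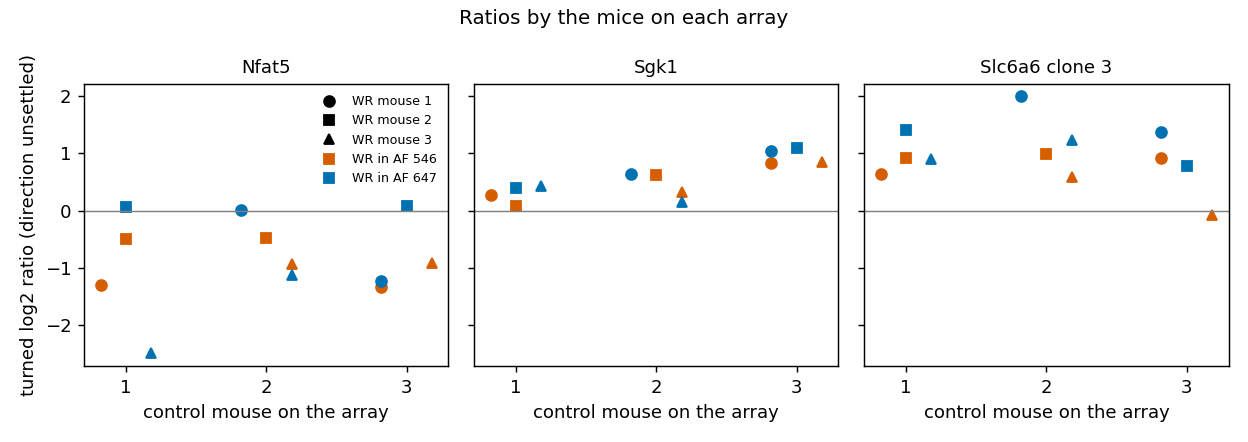
Turned log2 ratio (y axis) of Nfat5, Sgk1 and Slc6a6 clone 3 by the control mouse on the array (x axis), with marker shape for the restricted mouse and colour for its dye. The Sgk1 ratios against control mouse 3 run from 0.84 to 1.09, above all those against control mice 1 and 2.

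Slc38a2, the neutral amino acid carrier, differed between the dye orientations. With the restricted mouse in Alexa Fluor 647 all 6 ratios were positive, at 0.18, 0.28, 0.50, 0.96, 1.00 and 1.37. In the other orientation they were -0.47, -0.21, -0.01, 0.02, 0.58 and 0.71, with 3 on each side of 0. The dye term was -0.31 (SE 0.07, limma adjusted p = 0.0401), and such a call was made for 449 genes, 6.62% of all. Slc38a2 was the only one of the 5 genes with it, and the dye term was -0.26 (limma adjusted p = 0.261) when only the 3 swapped pairs were used. In the fit of all clones the Slc38a2 clone did not pass (limma adjusted p = 0.0645). Slc6a6 clone 3 had a dye term of the same size there (-0.31, SE 0.09, limma adjusted p = 0.0714).

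Over both orientations Slc38a2 ordered the control mice the other way round from Sgk1. Its ratios ran from 0.58 to 1.37 against control mouse 1, from -0.21 to 1.00 against control mouse 2 and from -0.47 to 0.28 against control mouse 3, so the arrays of control mice 1 and 3 did not overlap. Levels were 0.35, 0.24 and 0.01 in restricted mice and -0.66, -0.18 and 0.24 in control mice 1 to 3, and the groups overlapped. The difference was 0.41 (SE 0.24, 3 mice against 3, adjusted p by limma = 0.996). It was 0.10 with the restricted mouse in Alexa Fluor 546 alone, 0.72 with it in 647 alone, 0.18 without control mouse 1 and 0.62 without control mouse 3.

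The 3 clones of Slc6a6, the taurine transporter, did not give 1 picture. Clone 3 had ratios from -0.08 to 2.00 with a median of 0.92 and was positive on 11 of 12 arrays. Clone 1 was negative on 9 of 12 arrays, from -0.72 to 1.51, and clone 2 was positive on 6 and negative on 6, from -1.86 to 1.57. One sign on at least 11 arrays was seen in 4.87% of all clones, and on 12 in 1.7%.

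For Slc6a6 clone 3 the array below 0 was that of restricted mouse 3 with control mouse 3, at -0.08, and the other 5 arrays of its orientation ran from 0.59 to 0.98. With the restricted mouse in Alexa Fluor 647 clone 3 ran from 0.78 to 2.00. Both orientations of each swapped pair were positive, at 0.92 and 1.37, 0.91 and 1.40, and 0.59 and 1.24. Its levels were 0.79, 0.51 and 0.11 in restricted mice and -0.43, -0.83 and -0.15 in control mice, which did not overlap. Such levels were seen for 9.8% of all genes, and the share of all clones is not given here.

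The difference of clone 3 was 0.94 (SE 0.24, 3 mice against 3, adjusted p by limma = 0.766), that of clone 1 was -0.20 (SE 0.20) and that of clone 2 was -0.09 (SE 0.39), both with a limma adjusted p of 0.999. Clone 2 moved with single mice and arrays, to -0.43 without the array of restricted mouse 2 and control mouse 2 and to 0.35 without restricted mouse 1. In all, 0 of 15600 clones passed, 0% of all, and 584 clones had an unadjusted p under 0.05. With random mouse effects clone 3 passed (0.97, SE 0.15, limma adjusted p = 0.00300), as did the Sgk1 clone (limma adjusted p = 0.0424), against 1.4% of all clones, and the other 5 clones did not.

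**Figure D3:**
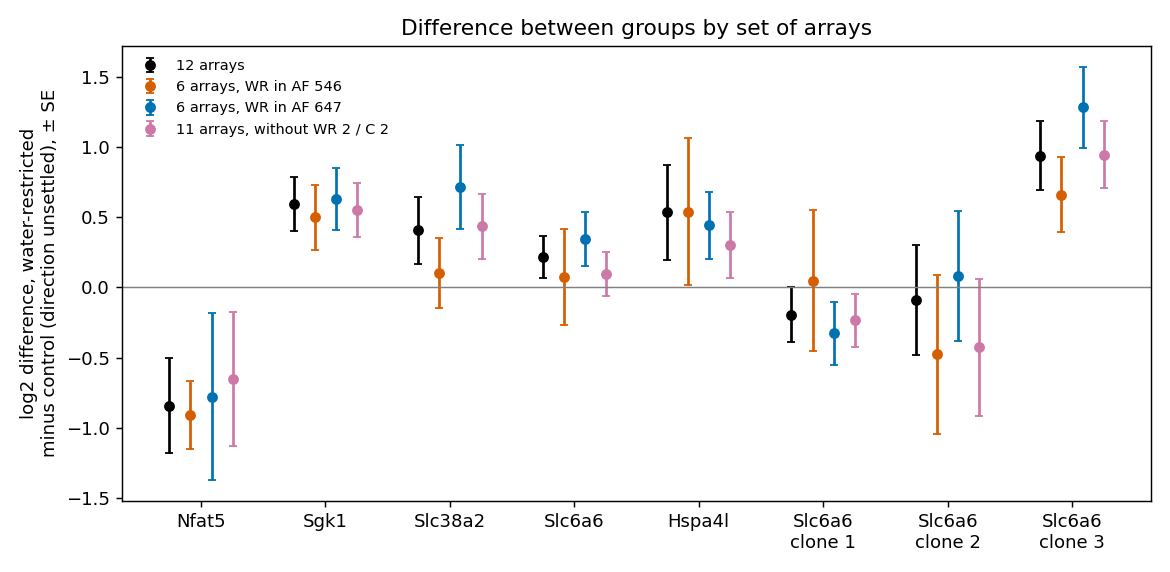
Log2 difference between groups, water-restricted minus control if Alexa Fluor 546 is the numerator and the reverse if 647 is, with its SE (y axis) for the 5 genes and the 3 Slc6a6 clones (x axis), from 12 arrays, from the 6 arrays of each orientation, and from 11 arrays without that of restricted mouse 2 and control mouse 2. Slc6a6 clone 3 is at 0.66 and 1.28 in the 2 orientations, and Slc38a2 at 0.10 and 0.72.

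Clones 1 and 3 differed by -1.13 (SE 0.26) in their difference between groups, clones 2 and 3 by -1.03 (SE 0.59) and clones 1 and 2 by -0.10 (SE 0.55). By limma 0 of 3477 pairs of clones of the same gene passed (0%), these 3 included (adjusted p = 1.00 for each), and 84 pairs had an unadjusted p under 0.05. The p of clones 1 and 3 was among the smallest, with 0.0863% of pairs below it. Across the 12 arrays, which share mice, clone 3 had an r of 0.06 with clone 1 and -0.10 with clone 2, and clones 1 and 2 of -0.31, where the median over all such pairs was 0.17. The spots of clone 1 agreed least, with a median difference of 0.36 and a largest of 2.40, on the array of restricted mouse 1 with control mouse 3 that gave its highest ratio. The spots of clone 2 differed by a median of 0.08 and those of clone 3 by 0.16, so the arrays of clone 2 lay far apart while its spots were close. Probe sequences were not used here, so which part of the transcript each clone covers is not known.

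As a gene, by the mean of its clones, Slc6a6 had ratios from -0.66 to 0.66, positive on 10 of 12 arrays, and a difference of 0.22 (SE 0.15, 3 mice against 3, adjusted p by limma = 0.996). Its levels were -0.02, 0.29 and 0.06 in restricted mice and -0.15, -0.12 and -0.06 in control mice. The difference was 0.10 (0.0950) without the array of restricted mouse 2 and control mouse 2 and 0.13 without restricted mouse 2, and in the 2 orientations it was 0.08 and 0.35. This mean covers clones with differences of -0.20, -0.09 and 0.94, of which no pair passed, so it need not describe any single clone.

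Hspa4l, the osmotic stress chaperone, varied most with 1 array and with restricted mice 2 and 3. Its ratio was 2.32 on the array of restricted mouse 2 with control mouse 2, whose SD was the highest, and the next highest was 0.97. With restricted mouse 1 its ratios were 0.88, 0.54, and 0.32 and 0.54, and with restricted mouse 2 on the other arrays 0.69 and 0.97, and 0.28. With restricted mouse 3 they were 0.22, -0.49 and 0.10, and -0.49. All 8 arrays of restricted mice 1 and 2 were thus positive, and both negative arrays were of restricted mouse 3.

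The Hspa4l spots differed by a median of 0.07, so its spread was between arrays. By mouse, levels were 0.35, 0.88 and -0.42 in restricted mice and -0.38, -0.62 and 0.19 in control mice, and the groups overlapped. The difference was 0.54 (SE 0.34, 3 mice against 3, adjusted p by limma = 0.996). It was 0.30 without the array of restricted mouse 2 and control mouse 2, 0.23 without restricted mouse 2 and 0.88 without restricted mouse 3.

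**Figure D4:**
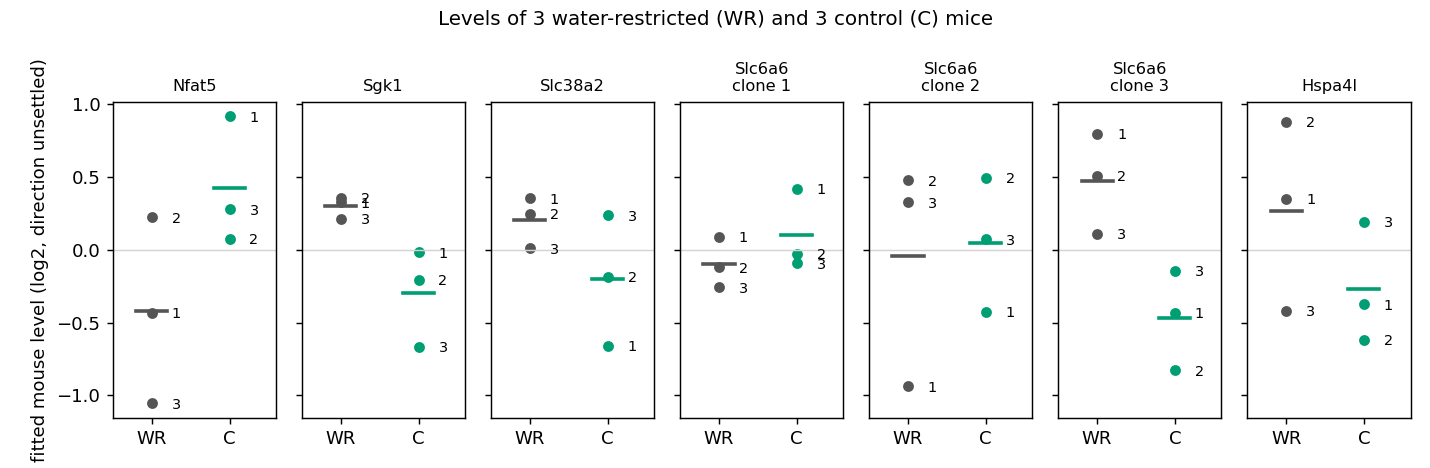
Fitted level (y axis, log2) of each restricted (WR) and control (C) mouse for the 7 clones, with the mouse number beside each point and a bar at the group mean. The groups are apart for Sgk1 and Slc6a6 clone 3 and overlap for the other 5 clones. They are apart for 9.8% of all genes, and the share of all clones is not given here.

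Mice of the same group were compared against the error between arrays. None of the 5 genes passed limma's F-test (F = 7.52 and adjusted p = 0.224 for Slc38a2, F = 0.42 and adjusted p = 0.880 for Slc6a6, the others between), where 14 genes or 0.206% did. Across the 6 mouse levels the members went together least for Nfat5 with Slc38a2 (r = -0.52) and most for Slc6a6 with Hspa4l (r = 0.75). On the 12 turned ratios those r were 0.14 and 0.56. These r describe few mice that share arrays, and those over the 6 mouse levels also hold the difference between groups.

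The genes whose 12 turned ratios were most like those of a member were found by Pearson r. This r leaves out each gene's mean ratio, so it does not compare differences between groups. Those differences, of either sign, are given only as description. For Nfat5 they were Sec31a (r = 0.86), Tfg (0.82) and Tshz2 (0.79), with log2 differences of -0.02, 0.16 and -0.50. For Sgk1 they were Slc39a8 (r = 0.87), Foxj3 (0.86) and Tes (0.84), with differences of -0.06, 0.06 and -0.35. For Slc38a2 they were Flcn (r = 0.92), Nexn (0.90) and Dynll1 (0.90), with differences of 0.62, -0.21 and 0.02. For Slc6a6 they were Zfp277, Pygb and Stx2 (r = 0.83, 0.83 and 0.82), and for Hspa4l C1s1, Acsl5 and Matn2 (r = 0.94, 0.93 and 0.90). The most opposite were Cert1 for Nfat5 (r = -0.91), Psmc3ip for Sgk1 (-0.92), Gpx3 for Slc38a2 (-0.92), Mfsd11 for Slc6a6 (-0.88) and Cryl1 for Hspa4l (-0.94). Each is an extreme of all other genes over 12 arrays that share mice and dye effects.

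The lists here and below were chosen with earlier results of these data known. Their counts beside the share of all genes are thus no test of enrichment. Among pathway lists, some of which hold the 5 genes themselves, several had more genes on the positive side. These were 68.8% for osmolyte handling, 83.3% for amino acid transporters and 68.4% for chaperones, the last 2 given below. Of 24 listed genes of osmolyte uptake, synthesis and breakdown 16 were measured, 11 positive and 5 negative, with a median of 0.31, where 50.7% of all genes were positive with a median of 0.00 (0.0034). None passed by limma. The listed Akr1b3, Slc5a3, Slc6a12, Pnpla6, Isyna1, Impa2, Sord and Gdpd5 were not among the measured genes. The smallest p were those of Slc5a11, which carries inositol with sodium, at 1.02 (SE 0.18), Miox, which breaks inositol down, at 1.43 (SE 0.32), Aldh7a1, which makes betaine, at 0.80 (SE 0.23), and Impa1, which frees inositol from its phosphate, at 0.55 (SE 0.18), with limma adjusted p from 0.414 to 0.771. Uptake and breakdown of inositol were thus both on the positive side, and Miox is also 1 of the proximal tubule markers given below. With random mouse effects Slc5a11 and Miox passed, 2 of the 16, against 1.67% of all genes. Without the array of restricted mouse 2 and control mouse 2, a check on the lists added after the data were seen, this list had 13 positive genes and a median of 0.19.

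Kinases and partners that act on Nfat5 lay on both sides. Of 25 measured of 35 listed, 9 were positive and 16 negative, with a median of -0.02 and 0 with an unadjusted p under 0.05. The smallest p were those of Atm, the DNA damage kinase, at -0.27 (SE 0.17), Cdk5, a cyclin-dependent kinase, at 0.33 (SE 0.23), Map2k6, which activates p38, at 0.56 (SE 0.48), and Xrcc5, of the DNA end-binding Ku complex, at -0.21 (SE 0.23), all with a limma adjusted p of 0.996. Without the array named above 13 were positive and 12 negative. The 2 other measured members of the NFAT family, which respond to calcineurin, were near 0, Nfatc3 at 0.07 (SE 0.15) and Nfatc4 at -0.07 (SE 0.23), against -0.84 for Nfat5.

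Of 19 measured of 32 listed genes for Sgk1's activation and targets, 12 were positive and 7 negative, with a median of 0.07 and 0 called. After Sgk1 the smallest p were those of Mtor, the kinase of the complex that activates Sgk1, at 0.53 (SE 0.22), Atp1b1, a subunit of the sodium pump, at 0.33 (SE 0.14), and Ywhaq, a 14-3-3 protein, at -0.25 (SE 0.23). Of the 15 genes listed for corticosteroid response 5 were measured, 3 positive and 2 negative, with a median of 0.44. The glucocorticoid receptor Nr3c1 had -0.29 (SE 0.20), Fkbp5, a steroid-induced co-chaperone, 0.50 (SE 0.48), and Fkbp4, a co-chaperone of steroid receptors, 0.44 (SE 0.34). Sgk1 was the only one of these 5 with an unadjusted p under 0.05.

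Amino acid transporters were mostly positive, with 10 of 12 measured genes (26 listed) on that side and a median of 0.16. Slc6a8, the creatine transporter, had 0.50 (SE 0.16, limma adjusted p = 0.771) and Slc7a8, a carrier of large neutral amino acids, 0.26 (SE 0.18). Of 11 measured of 19 genes listed for the ATF4 response, which also induces Slc38a2, 7 were positive, with a median of 0.17. Nupr1, a stress-induced nuclear protein, had 1.10 (SE 0.25), Atf4 itself 0.77 (SE 0.24), Vldlr, a lipoprotein receptor, -0.64 (SE 0.20) and Phgdh, the first enzyme of serine synthesis, -0.50 (SE 0.29). Genes of this list thus lay on both sides, and 0 passed (limma adjusted p from 0.553 to 0.996 for these 4). With random mouse effects Nupr1, Atf4 and Vldlr passed, 3 of the 11, against 1.67% of all genes.

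Among HSP110 and HSP70 chaperones and their partners 13 of 19 measured genes (26 listed) were positive, with a median of 0.14. Hsph1, of the same family as Hspa4l, had 0.67 (SE 0.17), Hspa5, of the endoplasmic reticulum, 0.59 (SE 0.22), Hspa9, of mitochondria, 0.43 (SE 0.19), and the co-chaperone Bag3 0.35 (SE 0.19), with limma adjusted p from 0.749 to 0.996. With random mouse effects Hsph1 and Hspa5 passed, 2 of the 19, against 1.67% of all genes. Genes of cell volume regulation were balanced, at 5 positive and 5 negative of 10 measured (20 listed), with a median of 0.01 (0.0079). There the smallest p were those of Lrrc8a, the volume-regulated anion channel, at 0.24 (SE 0.21), Slc12a7, a potassium-chloride cotransporter, at 0.15 (SE 0.15), Anxa4, a membrane-binding annexin, at -0.13 (SE 0.14), and Clcn3, a chloride transporter, at 0.15 (SE 0.17). Without the array of restricted mouse 2 and control mouse 2 several medians moved nearer to 0. Sgk1's list had 10 of 19 positive genes and a median of 0.02 (0.0230), corticosteroids 4 of 5 and 0.15, transporters 9 of 12 and 0.07 (0.0736), and ATF4 6 of 11 and 0.05 (0.0522). Chaperones had 14 of 19 and a median of 0.18, and volume 6 of 10 and 0.02 (0.0155).

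**Figure D5:**
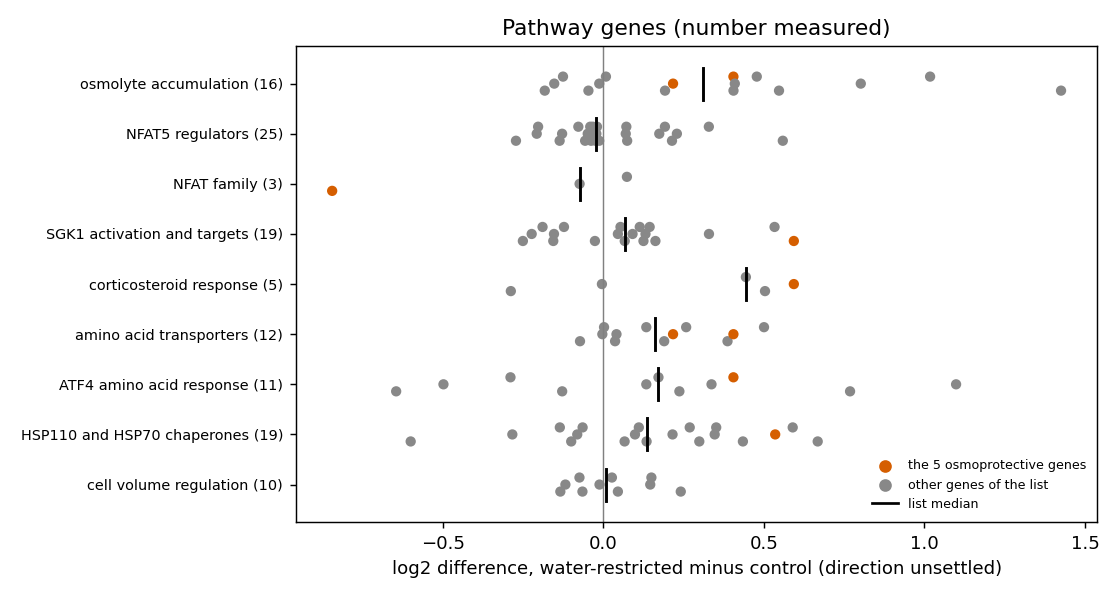
Log2 difference between groups (x axis; water-restricted minus control if Alexa Fluor 546 is the numerator, the reverse if 647 is) of every measured gene of the 9 pathway lists (y axis, number measured in brackets), with the 5 osmoprotective genes in orange and a bar at the list median. The osmolyte list has its median at 0.31 and the list of Nfat5 regulators at -0.02, where 25 genes run from -0.27 to 0.56.

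Mouse means of the principal cell, proximal tubule, erythroid and endothelial marker lists and of the single intercalated cell marker did not overlap between groups. The same held for the osmolyte, corticosteroid and amino acid transporter lists, and for 9.8% of all genes taken singly. That share of single genes is no background for means over lists. By limma 0 markers passed in the comparison of groups. All 6 measured of 15 principal cell markers of the collecting duct were negative, with a mean level from -0.33 to -0.22 in restricted mice and from 0.11 to 0.49 in control mice. Of 14 proximal tubule markers 5 were measured, 4 positive and Cyp7b1 at -0.08, with a mean level from 0.39 to 0.54 in restricted mice and from -0.92 to 0.22 in control mice. For the proximal tubule markers Gatm and Slc22a7 the groups overlapped, with control mouse 1 at 0.65 and 0.91. Mice of a group differed in both (limma F-test, adjusted p = 0.000713 and 0.0218). All 3 measured of 5 erythroid markers were negative, with a mean level from -0.66 to -0.13 in restricted mice and from 0.25 to 0.42 in control mice. With random mouse effects 3 of the 6 principal cell, 3 of the 5 proximal tubule and 1 of the 3 erythroid markers passed, Hbb-b1 (limma adjusted p = 0.00380), against 1.67% of all genes. On the scale used here control mouse 3 had the lowest Sgk1 level and the highest principal cell mean, and control mouse 1 had the lowest Slc38a2 level and the highest proximal tubule mean of the control mice; both orders turn round with Alexa Fluor 647 as the numerator. The part of these cell types in the results of the 5 genes was not tested. Of the 8 interstitial genes 6 were measured, 2 positive and 4 negative (median -0.25), with Dcn at 0.55 and Col3a1 at -0.56. Of the 8 endothelial genes 2 were measured, Slc14a1 at -0.31 and Emcn at -0.01 (median -0.16), and the groups overlapped for Emcn. For intercalated cells, thin limb, leukocytes and urothelium 1 gene each was measured, and 0 for the thick ascending limb. The single genes were at -0.74, 0.27, 0.40 and -0.13, the first being Slc4a1, which is also 1 of the 3 erythroid markers.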

How the data were processed

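For each spot of 12 arrays the deposited value is a log2 ratio between channels; base 2 was inferred from the range of the values, which reach -15.2. The sources used here give neither the numerator dye nor any background correction or normalization. The ratios of arrays with the restricted mouse in Alexa Fluor 647 were changed in sign, and turned arrays of the 3 swapped pairs correlated across clones at 0.14, -0.13 and 0.13. Adjacent spots were averaged to 15600 clones, and 9191 clones with 1 annotated gene to 6786 genes, of which 9085 clones were matched to RefSeq by Entrez identifier.

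A weighted least-squares fit with a dye term gave a level per mouse (arrays of a swapped pair weigh 0.5 each). The 3 and 3 levels were compared with limma 3.58.1 in R 4.3.3 (lmFit, eBayes), with Benjamini-Hochberg adjustment over all genes or clones and a threshold of 0.05. F-tests between mice and dye terms used limma on 12 arrays. The procedure was tested on simulated data. P-values of the fit on mouse levels measure the spread between the fitted levels of these mice, which also holds error between arrays. Those of F-tests and dye terms measure the error between arrays. Those with random mouse effects or with arrays as replicates count 12 arrays, not mice, so their calls are weaker evidence for a difference between groups of mice. Genes and lists were chosen with earlier results of these data known. Named genes are the 5 genes, up to 4 genes of smallest p per list and the 3 most alike and 1 most opposite per gene. Alternatives were centring, scaling, weights, dye orientation, spots, clones, mouse effects and left-out mice or arrays.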

Additional observations from a re-analysis of the deposited data

Results flagged for a closer look

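For each of the 7 clones the 6 arrays of each dye orientation were searched for a value far from the rest, 14 groups in all, of which chance marks about 1 in 20. Of these, 1 was marked. Slc6a6 clone 3 had -0.0827 on the array of restricted mouse 3 with control mouse 3, against 0.59 as the next lowest of its orientation.

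Slc38a2 differed between the dye orientations, with a dye term of -0.31 (limma adjusted p = 0.0401 among genes). Among clones it did not pass (limma adjusted p = 0.0645).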

How the results depend on the processing

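With the ratios taken as deposited and no sign turned, Sgk1 had -0.0669, Slc38a2 -0.32, Slc6a6 -0.11, Slc6a6 clone 1 0.18 and clone 3 -0.33, on the other side from the values above, and 4 clones passed. Under the other alternatives the 5 genes kept their side. With arrays as replicates Nfat5 (-0.84, limma adjusted p = 0.0190) and Sgk1 (0.56, 0.00550) passed among 451 genes and 674 clones, and with random mouse effects Sgk1 (0.56) among 113 genes and 219 clones. With the restricted mouse in Alexa Fluor 647 alone 1 gene and 1 clone passed, and with swapped pairs alone 1 gene. The small differences of Slc6a6 clones 1 and 2 changed sign, clone 1 to 0.0466 with the restricted mouse in Alexa Fluor 546 alone and 0.0258 with swapped pairs alone, clone 2 to 0.0796 with it in 647 alone, 0.13 with pairs hybridised once, and 0.35 without restricted mouse 1 and 0.13 without control mouse 2. Left-out mice gave clone 2 a range from -0.35 to 0.35. Without the array of restricted mouse 2 and control mouse 2, 50 genes differed between mice of a group, and the dye terms of Nfat5 (0.0650) and Hspa4l (-0.13) changed sign; with swapped pairs alone 1 gene had a dye term past the threshold and Hspa4l had -0.18. The cause was not tested.

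The mouse number as a replicate block left Sgk1 at 0.59 (limma adjusted p = 0.998) and changed no call. Deviations of same-numbered mice had r of -0.01, -0.54 and -0.11 across genes. Such mice share an array, whose noise moves their fitted levels in opposite directions, so these r cannot decide whether they deviate together.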
